A study of Mus musculus with 2 samples.

Results

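Histone genes were chosen by symbol, as every gene whose name began with Hist1h, Hist2h, Hist3h, Hist4h, H1f, H2af or H3f, and they made up 83 of the 32285 genes counted. They fell into 61 core genes (the H2A, H2B, H3 and H4 genes of the Hist clusters), 12 variant genes (H2af and H3f symbols) and 10 linker genes (Hist1h1 and H1f symbols). The 2 single-cell RNA-seq libraries came from female mice of strain BALB/cAnNCrl, bought at 7 to 8 weeks of age, that carried liver metastases of 4T1, a mouse mammary carcinoma line. Treatment was vehicle or CBL0137 (given low or high), a curaxin that loosens the binding of DNA to histones. The paper gives hepatic arterial infusion as the route. Cells were collected 5 days after treatment, with 2 mice pooled per group. The methods do not state whether both libraries came from the same mice, so the libraries may not be independent. Each of the 3 groups carried its own antibody hashtag (A0301 vehicle, A0305 low dose, A0310 high dose), and the labels do not give the dose amounts. Per the methods the cells were those held on CD11b beads, while the labels name leukocytes, and clusters with T cell, B cell, endothelial, hepatocyte and tumor cell markers were present.

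Each hashtag group was 1 pooled sample per library, so no comparison had replicates and no test was made. The unit was the UMI (1 tagged mRNA molecule), and levels are counts per 1000000 gene UMIs (CPM) summed over the cells of a group. All intervals are 95% intervals for counting error only. A gene was counted as past 2-fold when the ratio of its 2 CPM values was at least 2 either way and both sides together held at least 20 UMIs. A level is compared between cells for 1 gene and not between genes, since transcripts differ in length and in their poly(A) tails.

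The tissue labels went against the content of the libraries. Hepatocyte transcripts summed to 81.1 CPM in the spleen-labelled library and to 0.0728 CPM in the liver-labelled library, and the Kupffer cell gene Clec4f was at 124.5 CPM and 0 CPM. The libraries are therefore named by their label only. Of 9591 and 4830 barcodes, 8435 and 2988 carried 1 hashtag and were used (the liver-labelled library is given first here and in every pair of values that follows, unless named otherwise), with 68667953 and 28272132 gene UMIs. The libraries shared 15 barcodes, of which 6 belonged to used cells. Classes of cells were named from marker genes after clustering without the histone genes, and a class name ends in "-like".

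Histones package DNA into nucleosomes, in which DNA winds around a core of H2A, H2B, H3 and H4, while the linker histone H1 binds the DNA where it enters and leaves. Most core histone mRNAs are replication dependent. They are made in S phase, end in a conserved stem-loop instead of a poly(A) tail, and are handled by the stem-loop binding protein. Replacement variants such as H3.3 and H2A.Z are made throughout the cell cycle from ordinary polyadenylated mRNAs. A library primed on poly(A) is therefore expected to see replication-dependent histones only in part, and the counts here are of the molecules that were captured.

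The stem-loop was searched in all GENCODE M21 transcripts of the mouse build GRCm38 (mm10) as a hairpin on the strand of the transcript, with a stem of GGCTCT or GGCCCT, the loop TTTC and the reverse complement of the stem. It was found in 35 of 21901 protein-coding genes (0.160%), and 33 of those were histone genes. In 17 core genes the annotated transcript stopped within 100 bases of the stem-loop. In 13 core and 3 linker genes an annotated transcript ran on for more than 100 bases, and in the other 31 core, 7 linker and 12 variant genes no such hairpin was in the models. A stem-loop with other bases in its stem or loop was not searched for, so these genes may still have one. The sequences of 5 genes that the results turn on are shown with 7 bases on each side where the transcript allowed, with the stem-loop in capitals.
Hist1h2ap, chr13:21833026-21833051 (minus strand): aaaaaaaGGCTCTTTTCAGAGCCatc
Hist1h2ae, chr13:23570661-23570690 (minus strand): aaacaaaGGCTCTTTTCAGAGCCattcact
Hist1h4d, chr13:23581943-23581972 (plus strand): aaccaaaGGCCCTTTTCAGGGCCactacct
Hist1h1e, chr13:23621775-23621804 (minus strand): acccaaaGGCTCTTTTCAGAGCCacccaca
Hist1h1c, chr13:23739505-23739534 (plus strand): tccaaaaGGCTCTTTTCAGAGCCaccactc
The transcript of Hist1h2ap ended 3 bases after the stem-loop. Those of Hist1h2ae, Hist1h4d, Hist1h1c and Hist1h1e ran on for 151, 770, 840 and 1153 bases. All 54 Hist1 genes lay on chromosome 13, between positions 21715763 and 23934851.

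Promoters were read from RefSeq (GRCm38.p6) as the 250 bases before its gene start. Of the 83 genes, 74 had such a window near their annotated gene, on the same chromosome and strand. The RefSeq start was not always the GENCODE start. For some genes, H3f3b and Hist1h1d among them, the window lay inside the annotated gene. The letters CCAAT, ATTTGCAT (the octamer bound by Oct factors) and TATAAA were searched on both strands, and none of the 3 holds another. CCAAT was in all 17 H2A and all 16 H2B promoters, in 8 of 10 H3, 7 of 10 H1 and 3 of 12 H4 promoters, and in 34.5% of the promoters of all 27025 genes. The octamer was in 7 of 17 H2A and 6 of 16 H2B promoters, in none of the H3, H4 or H1 promoters of the Hist clusters, and in 1.61% of all promoters. Some H2A and H2B genes have overlapping windows on opposite strands, such as Hist1h2ae and Hist1h2bg. The same letters then count in both families. All the letters marked in the Hist1h2ae window below also lie in the Hist1h2bg window, on the other strand. TATAAA was in 25 of 55 core, 4 of 10 linker and 1 of 9 variant promoters and in 12.97% of all promoters. The 4 promoters shown belong to genes that the comparisons below describe, and were chosen to show an H2A, an H4, a linker and a variant promoter, with these letters in capitals.
Hist1h2ae, chr13:23571221-23571470 (minus strand): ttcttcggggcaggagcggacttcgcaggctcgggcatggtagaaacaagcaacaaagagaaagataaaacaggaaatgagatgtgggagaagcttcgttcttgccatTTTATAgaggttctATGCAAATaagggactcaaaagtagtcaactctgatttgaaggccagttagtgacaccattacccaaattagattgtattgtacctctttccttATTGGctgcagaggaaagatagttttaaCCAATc
Hist1h4i, chr13:22041363-22041612 (minus strand): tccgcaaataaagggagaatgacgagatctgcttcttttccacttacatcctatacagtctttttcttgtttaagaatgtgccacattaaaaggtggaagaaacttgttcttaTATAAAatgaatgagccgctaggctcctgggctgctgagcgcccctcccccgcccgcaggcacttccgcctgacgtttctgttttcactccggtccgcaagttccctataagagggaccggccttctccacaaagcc
Hist1h1c, chr13:23738557-23738806 (plus strand): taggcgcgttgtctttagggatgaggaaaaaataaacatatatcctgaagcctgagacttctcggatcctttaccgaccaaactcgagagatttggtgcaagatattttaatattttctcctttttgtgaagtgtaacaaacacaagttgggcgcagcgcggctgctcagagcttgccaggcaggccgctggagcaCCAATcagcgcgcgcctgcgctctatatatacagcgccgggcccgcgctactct
H3f3b, chr11:116024505-116024754 (minus strand): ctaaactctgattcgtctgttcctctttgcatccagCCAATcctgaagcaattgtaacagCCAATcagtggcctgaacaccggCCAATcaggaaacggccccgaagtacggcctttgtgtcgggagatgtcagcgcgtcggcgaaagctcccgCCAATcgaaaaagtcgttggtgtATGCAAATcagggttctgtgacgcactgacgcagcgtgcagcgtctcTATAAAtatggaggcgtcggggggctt
The variant gene H3f3b was the exception among the variants in holding all 3 sets of letters, in a window inside its annotated gene (chr11:116021912-116027962).

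Histone UMIs made up 0.610% and 0.673% of all gene UMIs. Of the 83 genes, 78 had at least 1 UMI in the used cells and 53 had at least 100. The 5 without a UMI were Hist1h2ba, H1fnt, H2afb1, H2afb2 and H2afb3. Variant genes gave 84.7% of the histone UMIs, linker genes 7.96% and core genes 7.32%. Some values are uncertain by their position: the models of Hist1h1e and Hist1h2be overlap on the same strand, as do those of Hist3h2a with Trim17 and of Hist2h3c1 with Gm20634 among 8 members with such an overlap, H3f3aos is the antisense gene of H3f3a, and the coding parts of the core genes are near copies of each other, so that reads could be split or lost between them.

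Cycling and non-cycling cells were compared first, since replication-dependent histones belong to S phase. A cell was called cycling when 24 S phase and 25 G2/M genes, none of them a histone gene, held at least 0.3% of its UMIs from at least 3 genes, and non-cycling when they held at most 0.1%. This gave 588 and 485 cycling cells and 7174 and 2217 non-cycling cells, with 673 and 286 cells in between left out. Within 0.05 percentage points of the upper limit lay 30 and 26 cycling cells and 56 and 36 of the cells in between. The cycling cells were mostly granulocyte progenitor-like (362 and 286 cells), while the non-cycling cells were mostly neutrophil-like, T cell-like and B cell-like, so cell type moved with the state. They were also deeper. The median depth of cycling cells lay between 20357 and 30361 UMIs in the 6 library and dose groups, against 3677 to 6051.5 in non-cycling cells.

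Core and linker histones were higher in cycling cells, and variants as a group less so. Core genes stood at 1315 CPM in cycling and 216 CPM in non-cycling cells of the liver-labelled library, a log2 ratio of 2.61 (2.57 to 2.64). The spleen-labelled library had 711 and 159 CPM (log2 2.16, 2.09 to 2.23). Linker genes stood at 1556 and 127 CPM (log2 3.61, 3.57 to 3.65) and at 989 and 216 CPM (2.19, 2.14 to 2.25). Taken as a mean over cells, the ratios were 1.87 and 1.51 for core and 2.99 and 1.79 for linker genes. Variant genes stood at 7952 and 4068 CPM (log2 0.97, 0.96 to 0.98) and at 7830 and 4550 CPM (0.78, 0.77 to 0.80).

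Of 67 histone genes with enough UMIs in the liver-labelled library, 53 were at least 2-fold higher in cycling cells, against 16.8% of all genes, and 3 were at least 2-fold lower, against 24%. In the spleen-labelled library 53 of 61 were higher (19.2% of all genes) and 1 was lower (17.1%). By group, 42 of 51 and 42 of 46 core genes, 6 of 7 and 6 of 7 linker genes, and 5 of 9 and 5 of 8 variant genes were past 2-fold higher. The median log2 ratio over the members was 2.93 and 2.80, and that over all genes was -0.14 and 0.06.

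**Figure D1:**
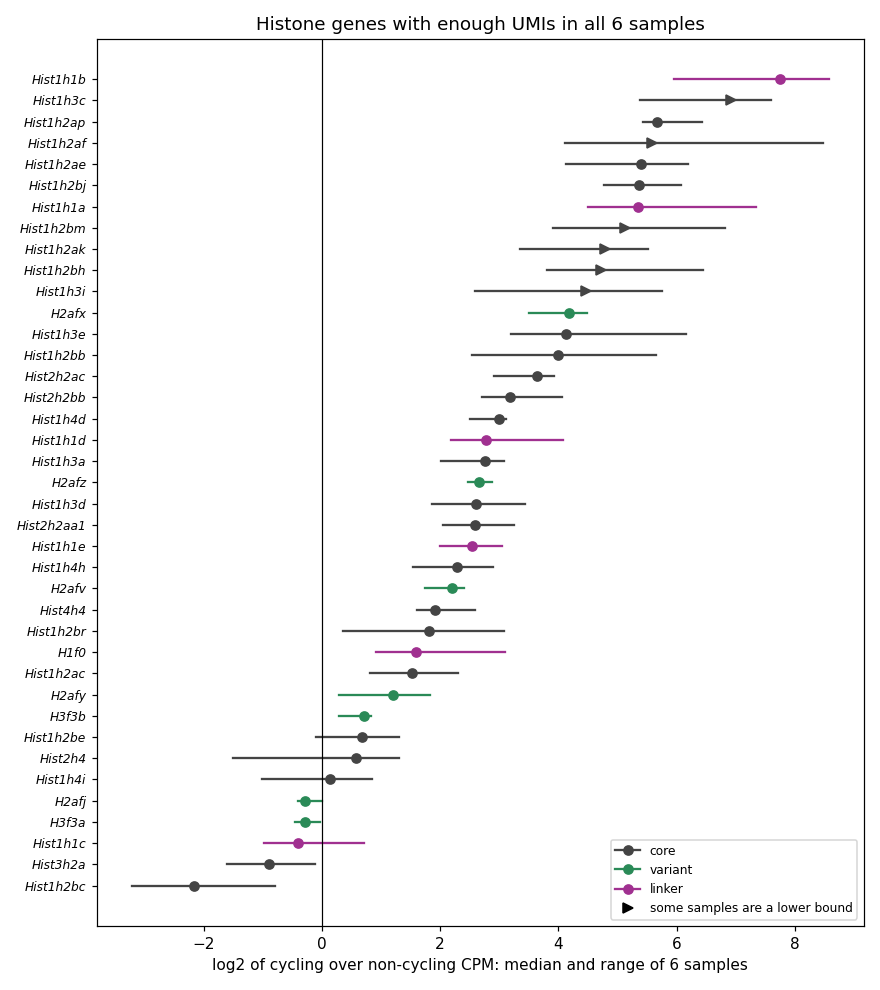
Log2 of cycling over non-cycling CPM (x axis) for the histone genes with enough UMIs in all 6 library and dose groups. Points are medians over the 6 samples, bars run from the lowest to the highest sample, colours give core, variant and linker genes, and triangles mark genes for which at least 1 sample is a lower bound because the non-cycling cells had no UMI. Hist1h1b lies highest with a median of 7.74 and Hist1h2bc lowest with -2.16.

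Among the core genes, Hist1h2ap encodes an H2A protein. In cycling cells it stood at 383, 374 and 311 CPM (vehicle, low dose and high dose, liver-labelled library) and at 193, 158 and 142 CPM (spleen-labelled library). In non-cycling cells its levels were 8.90, 4.85 and 3.61 CPM and 4.20, 3.53 and 2.53 CPM. The pooled cycling level lay above the pooled non-cycling level in each of the 6 samples, and the median log2 ratio was 5.67. Hist1h2ae, another H2A gene, stood at 357, 324 and 296 CPM and at 132, 104 and 78.5 CPM in cycling cells. In non-cycling cells it lay between 4.04 and 6.35 CPM, and its median log2 ratio was 5.39. Hist1h4d, an H4 gene, stood at 114, 113 and 121 CPM and at 72.6, 48.9 and 47.8 CPM in cycling cells. Its non-cycling levels lay between 5.89 and 20.4 CPM, and its median log2 ratio of 2.99 lay below those of the H2A genes.

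The largest pooled core ratio was that of Hist1h2af, an H2A gene, in the liver-labelled library, with 335 UMIs in cycling cells and 1 UMI in non-cycling cells (log2 9.80, 7.32 to 15.11). The H3 gene Hist1h3c had log2 ratios of 7.12 (6.47 to 7.86) and 7.55 (5.68 to 10.60). Other large ratios, not a full ranking, were found in both libraries. In the liver-labelled library they included the H3 gene Hist1h3g (6.70), the H2A genes Hist1h2an (6.52) and Hist1h2ab (6.10) and the H2B genes Hist1h2bn (6.49) and Hist1h2bm (6.37). In the spleen-labelled library they included the H2A genes Hist1h2ak (6.62) and Hist1h2af (6.07) and the H2B gene Hist1h2bm (6.21). Each of these 3 had 1 or 2 UMIs in the non-cycling cells of that library. Hist1h2ai and Hist1h3b had no UMI in the non-cycling cells of the liver-labelled library, as had Hist1h3b, Hist1h2bk, Hist1h2an and Hist1h2bn in the spleen-labelled library. Against a floor of 3 counts in the non-cycling cells, they were at least 2 to the power 5.04 and 5.81, and 3.49, 3.54, 4.43 and 4.99, higher in cycling cells.

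The core genes did not all follow this pattern. The values here join all cell classes, and cell type moved with the state. The part of cell type in them was not tested. Hist1h2bc, an H2B gene, was lower in cycling cells of every sample. Its cycling levels were 12.4, 12.6 and 9.29 CPM and 15.3, 18.2 and 20.97 CPM, and its non-cycling levels were 115, 95.3 and 16.3 CPM and 69.2, 79.6 and 36.5 CPM. The log2 ratios ran from -3.21 to -0.80, and the gap was smallest in the high dose samples. Hist1h4i, an H4 gene, stood at 26.6, 29.1 and 17.95 CPM and at 50.7, 34.3 and 22.7 CPM in cycling cells. Its non-cycling levels were 53.5, 34.9 and 10.0 CPM and 37.0, 38.9 and 15.99 CPM, so that 3 samples were higher and 3 lower in cycling cells. Hist3h2a, an H2A gene of chromosome 11, was lower in 6 of 6 samples with a median log2 ratio of -0.89, and in the liver-labelled library Hist2h3c1 (7 and 53 UMIs) also lay past 2-fold lower (log2 -1.505).

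The core and linker genes were set apart by the annotated end of their transcripts. Over all genes, 16.8% and 19.2% were at least 2-fold higher in cycling cells and 24% and 17.1% lower. Where the transcript stopped near the stem-loop, 13 of 14 and 12 of 12 genes were at least 2-fold higher, with median log2 ratios of 5.33 and 4.07. Where a transcript ran on beyond it, 10 of 15 and 12 of 15 were higher, 2 and 0 were lower, and the medians were 1.74 and 2.18. Genes without the hairpin in their models had medians of 4.26 (25 of 29 higher, 1 lower) and 3.51 (24 of 26 higher, 1 lower). Some models without the hairpin were short, such as that of Hist1h2bl (chr13:21715763-21716143), and may stop before it. Others were longer, such as that of Hist2h4 (chr3:96261682-96263311). The search took exact letters only, so this kind may hold genes whose stem-loop has other bases. These counts cover the genes that passed the UMI minimum, and no test was made of the difference between the kinds.

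**Figure D2:**
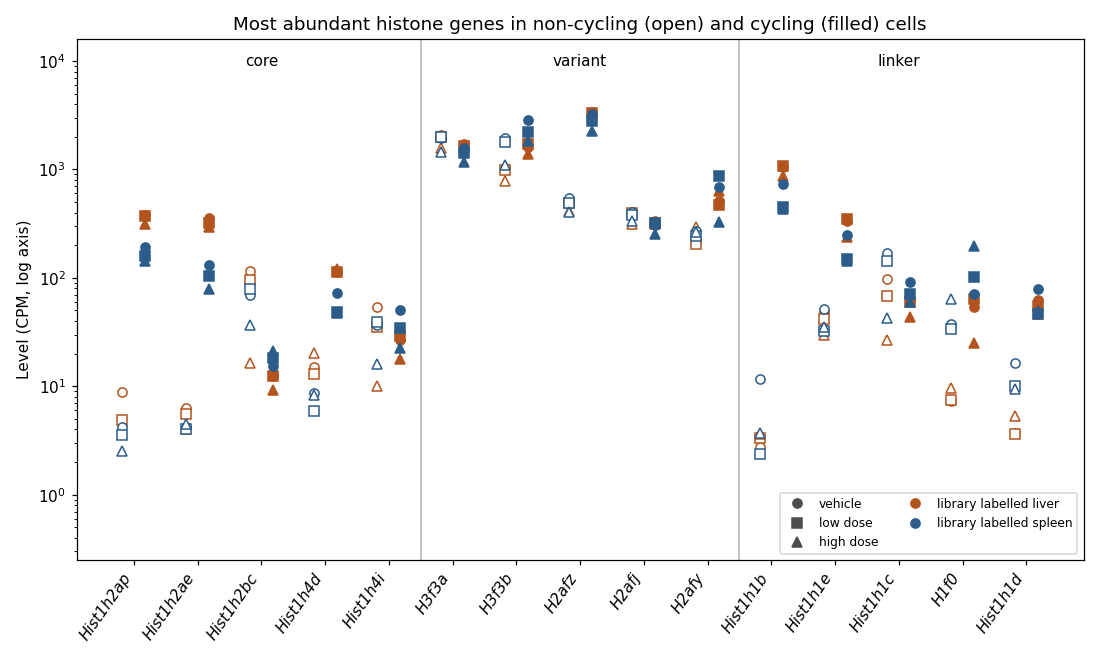
Levels in CPM (log axis) of the 5 core, 5 variant and 5 linker genes with the most UMIs, in non-cycling (open) and cycling (filled) cells. Each point is 1 of the 6 library and dose samples, with shape for dose group and colour for library. Cycling levels of Hist1h2ap (142 to 383 CPM) all lie above its non-cycling levels (2.53 to 8.90 CPM), and those of Hist1h2bc (9.29 to 20.97 CPM) overlap only the lowest of its non-cycling levels (16.3 to 115 CPM).

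The linker genes included the largest 6-sample median. Hist1h1b encodes a linker histone of dividing cells. It stood at 1056, 1085 and 867 CPM and at 734, 451 and 428 CPM in cycling cells, against 2.78, 3.34 and 3.61 CPM and 11.8, 2.35 and 3.70 CPM in non-cycling cells. Its log2 ratios ran from 5.96 to 8.57 with a median of 7.74. Hist1h1a, another linker histone, had a median of 5.35 (4.51 to 7.34), and Hist1h1d one of 2.77 (2.19 to 4.08), both higher in 6 of 6 samples.

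Hist1h1e encodes a linker histone that many cell types carry. In cycling cells it stood at 338, 346 and 237 CPM and at 250, 149 and 142 CPM, and in non-cycling cells at 48.0, 42.01 and 29.5 CPM and 51.9, 32.3 and 35.5 CPM. Its median log2 ratio was 2.54. Hist1h1c differed from it in that its cycling levels (62.9, 60.2 and 44.0 CPM and 91.3, 71.6 and 59.5 CPM) overlapped its non-cycling levels (97.8, 67.4 and 26.9 CPM and 168, 142 and 43.1 CPM). Over all cell classes together, Hist1h1c was lower in cycling cells of the vehicle and low dose samples and higher in those of the high dose samples. Its median was -0.40, and the part of cell class was not tested. H1f0, the linker histone of differentiated cells, stood at 53.5, 63.5 and 25.2 CPM and at 71.2, 101 and 195 CPM in cycling cells. Its non-cycling levels were 7.31, 7.41 and 9.74 CPM and 37.8, 33.8 and 64.2 CPM, higher in cycling cells of all 6 samples, with a median of 1.59.

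Among the variants, the genes with many UMIs fell on both sides of 0. H2afz encodes H2A.Z, an H2A variant found at promoters. It stood at 3365, 3300 and 3038 CPM and at 3234, 2770 and 2272 CPM in cycling cells, against 501, 486 and 416 CPM and 540, 491 and 409 CPM in non-cycling cells (median log2 2.67). H2afx, the variant that is phosphorylated at DNA breaks, had a median of 4.19 (3.50 to 4.48), H2afv, a close relative of H2A.Z, one of 2.20 (1.75 to 2.40), and H2afy, which encodes macroH2A, one of 1.21 (0.29 to 1.83). All 4 were higher in cycling cells of 6 of 6 samples.

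H3f3a and H3f3b both encode the replacement histone H3.3 and differed in direction over all cell classes together. The non-cycling level of H3f3a differed between classes, as given below, and the part of class was not tested. H3f3a stood at 1728, 1631 and 1527 CPM and at 1584, 1432 and 1172 CPM in cycling cells, and at 2086, 2010 and 1563 CPM and 1939, 1972 and 1435 CPM in non-cycling cells. It was lower in cycling cells of all 6 samples, by a median of -0.29 on the log2 scale. H3f3b stood at 1612, 1709 and 1391 CPM and at 2843, 2211 and 1847 CPM in cycling cells, and at 1024, 981 and 782 CPM and 1958, 1801 and 1092 CPM in non-cycling cells. It was higher in cycling cells of all 6 samples, by a median of 0.71. H2afj, an H2A variant, had a median of -0.29 and was lower in 5 of 6 samples.

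The cycling difference of the core and linker sums was also present within cell classes. A class could join several clusters, such as the T cell-like cluster 21 of the liver-labelled library, which was led in part by the cycle genes Top2a and Mki67. In T cell-like cells core genes stood at 2398 CPM in 54 cycling and 115 CPM in 2200 non-cycling cells (log2 4.39, 4.29 to 4.49) of the liver-labelled library, and at 838 and 111 CPM in 70 and 186 cells (2.92, 2.62 to 3.23) of the spleen-labelled library. Linker genes in the same cells had log2 ratios of 4.78 (4.67 to 4.89) and 2.19 (1.96 to 2.43). In granulocyte progenitor-like cells, which had only 21 and 28 non-cycling cells, core genes had log2 ratios of 2.66 (2.32 to 3.03) and 1.79 (1.41 to 2.20), and linker genes 2.25 and 1.77. Monocyte-like cells of the liver-labelled library (core 3.32, linker 3.45) and macrophage-like cells of the spleen-labelled library (core 2.16, linker 1.74) had ratios in the same direction.

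In the 4T1 tumor cell-like cluster of the spleen-labelled library the ratios were also above 0 and under 2-fold. Core genes were at 320 CPM in its 40 cycling and 220 CPM in its 25 non-cycling cells, a log2 ratio of 0.54 (0.24 to 0.85). Linker genes were at 727 and 466 CPM (0.64, 0.44 to 0.85), and variant genes had a ratio of 0.57 (0.50 to 0.65). Of its 82 cells, 49 came from the high dose group. H1f0 was at 490 CPM (456.8 to 524.9) in its cycling and 398 CPM (344.6 to 456.3) in its non-cycling cells, against 145 CPM in endothelial cell-like cells and at most 133 CPM in the cycling or non-cycling cells of any other class with a value. The high dose sample labelled spleen, with H1f0 at 195 CPM in its cycling cells, held most of these tumor cell-like cells. Their part in that value was not tested.

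Within the cycling cells, those with more UMIs from the S list were set against those with more from the G2/M list. The UMI sums were not scaled and each side joined all cell classes. The part of cell class and depth in these ratios was not tested. With the dose groups pooled, no core gene was past 2-fold higher on the S side. In single samples the core gene Hist1h3d ran from -0.89 to 1.06. Hist1h1a was at least 2-fold higher in S-leaning cells of both libraries, with a 6-sample median log2 ratio of 1.03 (0.80 to 1.72, higher in 6 of 6). It was the single member of 63 and of 56 past 2-fold higher (9.77% and 3.24% of all genes). With the dose groups pooled there were 6 and 5 members past 2-fold lower (3.62% and 4.01%). The genes named next, by 6-sample median, are not a list of these. H2afx had a median of -1.26 and Hist1h4d of -1.04. Under 2-fold at the median were Hist1h4h (-0.995), Hist1h3i (-0.95), Hist2h2bb (-0.85), H1f0 (-0.70), Hist1h3c (-0.67), Hist1h1c (-0.55) and Hist1h1e (-0.54). All of these were lower in S-leaning cells of 6 of 6 samples, as were further members not named. H2afy (0.43) and H2afj (0.18) were higher in 6 of 6. Hist1h1b (0.06), Hist1h2ap (-0.27) and Hist1h2ae (-0.17) lay near 0 at the median.

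Genes that process histone mRNA or carry histones were read from a list of 25. Of 25 and 24 with enough UMIs, 13 and 16 were at least 2-fold higher in cycling cells and none was lower. Over all genes, 16.8% and 19.2% were higher and 24% and 17.1% lower. The chaperone subunits Asf1b (log2 5.51 and 5.95), Chaf1a (4.80 and 4.32) and Chaf1b (3.31 and 3.21), which deposit H3 and H4 behind the replication fork, had the largest ratios with Cenpa (3.72 and 3.66), the centromeric H3 variant. The H3 and H4 chaperone Nasp had ratios of 2.58 and 2.85, the H2A.Z chaperone Anp32e of 2.41 and 2.40, and Slbp, the stem-loop binding protein, of 2.24 and 1.97. Lsm10, a subunit of the particle that cuts histone mRNA, was at -0.87 and -0.61.

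The question of dose was asked in non-cycling neutrophil-like cells, the class with most cells in the vehicle groups. It held 1346, 1241 and 177 cells in the vehicle, low dose and high dose groups of the liver-labelled library, and 279, 552 and 107 cells in those of the spleen-labelled library. The median depth of these cells was 4312.5, 5625 and 18272 UMIs and 3461, 3926.5 and 11077 UMIs, so depth per cell moved with the high dose in both libraries. The part of depth in the results below was not tested.

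Summed as groups, core and linker genes were lower in the high dose cells of both libraries, and variants little so. In both libraries most of the core difference in CPM lay in Hist1h2bc and Hist1h4i, and most of the linker difference in Hist1h1c. These genes are described below. The linker gene H1f0 was higher in the spleen-labelled library. Core genes stood at 359, 298 and 77.5 CPM and at 256, 251 and 81.8 CPM in the vehicle, low dose and high dose cells. The log2 ratio of high dose to vehicle was -2.21 (-2.40 to -2.04) and -1.65 (-1.98 to -1.33), and as a mean over cells it was -3.28 and -2.09. Linker genes stood at 188, 131 and 35.0 CPM and at 319, 245 and 110 CPM, with ratios of -2.43 (-2.70 to -2.16) and -1.54 (-1.82 to -1.26), and as a mean over cells of -3.43 and -1.61. Variant genes stood at 4326, 4265 and 3782 CPM and at 5094, 5111 and 3775 CPM, with ratios of -0.19 and -0.43. At the low dose the ratios to vehicle were -0.27 and -0.03 for core, -0.53 and -0.38 for linker and -0.02 and 0.01 for variant genes.

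In the liver-labelled library 18 of 27 histone genes were at least 2-fold lower at the high dose and none higher, against 20.2% and 1.07% of all genes. They were 12 of 14 core, 3 of 5 linker and 3 of 8 variant genes. In the spleen-labelled library 6 of 14 were lower and 1 was higher, against 6.93% and 4.75% of all genes. The median log2 ratio over the members was -1.40 and -0.58, and that over all genes was -0.41 and -0.03. At the low dose 1 of 30 and 1 of 14 members were past 2-fold lower (2.56% and 1.77% of all genes) and none was higher (0.873% and 3.11%). That member was Hist1h2ap in both libraries, at -1.06 (-1.54 to -0.60) and -1.15 (-2.60 to 0.26), the latter with an interval that includes 0. In the liver-labelled library the share of members lower lay near that of all genes.

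**Figure D3:**
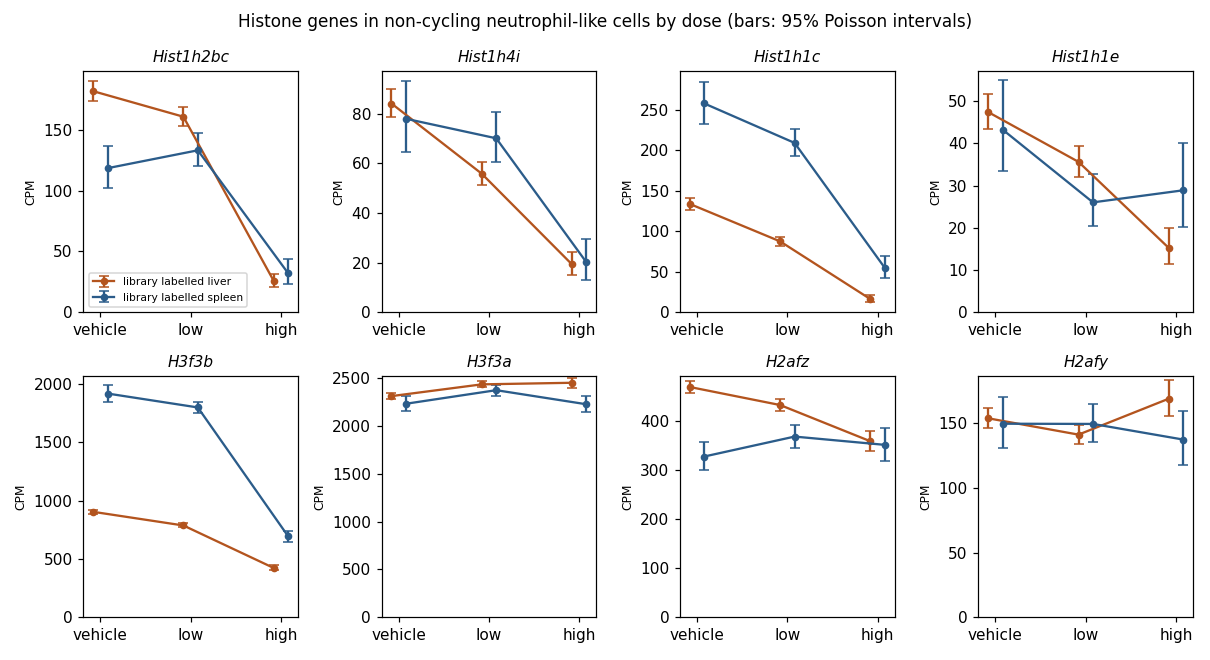
Levels in CPM (y axis, from 0) of 8 histone genes in non-cycling neutrophil-like cells of the vehicle, low dose and high dose groups, 1 line per library, with 95% Poisson intervals as bars. Hist1h2bc, Hist1h4i, Hist1h1c and H3f3b are lower at the high dose than in vehicle in both libraries, while H3f3a lies between 2224 and 2449 CPM in all 6 samples.

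Hist1h2bc stood at 182, 161 and 25.8 CPM and at 119, 133 and 32.1 CPM. Both high dose values lay below the other 4, and the log2 ratio to vehicle was -2.82 (-3.14 to -2.51) and -1.89 (-2.42 to -1.39). Hist1h4i stood at 84.1, 55.8 and 19.2 CPM and at 78.0, 70.1 and 20.0 CPM, again with both high dose values lowest (-2.13, -2.51 to -1.77, and -1.96, -2.64 to -1.33). The linker gene Hist1h1c stood at 133.5, 87.3 and 16.1 CPM and at 257, 209 and 54.5 CPM. It had the largest pooled difference among genes with at least 50 UMIs on both sides together and more than 3 UMIs in the high dose cells (-3.05, -3.47 to -2.67, and -2.24, -2.63 to -1.86). Hist1h1e stood at 47.4, 35.6 and 15.2 CPM and at 43.2, 26.0 and 28.9 CPM. Its ratio was -1.64 (-2.08 to -1.23) in the liver-labelled library, and in the spleen-labelled library the interval reached 0 (-0.58, -1.21 to 0.02).

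The H3.3 genes differed here too. H3f3b stood at 904, 787 and 423 CPM and at 1916, 1797 and 695 CPM, with ratios of -1.09 (-1.17 to -1.02) and -1.46 (-1.57 to -1.35). H3f3a stood at 2309, 2432 and 2449 CPM and at 2230, 2371 and 2224 CPM, with ratios of 0.08 (0.05 to 0.12) and -0.00 (-0.08 to 0.07). The genes encode the same protein, and at the high dose only H3f3b of the pair was past 2-fold lower. H2afz stood at 469, 432 and 359 CPM and at 328, 368 and 351 CPM, with ratios of -0.39 (-0.48 to -0.30) and 0.10 (-0.09 to 0.29).

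Other members with at least 50 UMIs past 2-fold lower in the liver-labelled library were Hist1h2ac (-3.42, 2 UMIs at the high dose), Hist1h2br (-2.46, 3 UMIs), Hist1h2be (-2.39), Hist1h2ap (-1.78), H2afx (-1.60), Hist2h2ac (-1.499) and Hist1h2ae (-1.23). The first 3 are H2A and H2B genes, and H2afx is the variant named above. The list of processing genes and chaperones had 4 of 21 lower in the liver-labelled library, a share near the 20.2% of all genes, and these were the H3 and H4 chaperone Asf1a (-1.36), Srcap, which loads H2A.Z (-1.20), Cabin1 of the HIRA complex (-1.19), and Supt16 (-1.10), a subunit of FACT, the chaperone that CBL0137 is known to trap on chromatin. Of 15 in the spleen-labelled library, none was lower and 1 was higher (Daxx, 1.00, -0.16 to 2.23, 29 UMIs in all, named after its value was seen). The single member past 2-fold higher there was H1f0 (5.24 CPM in vehicle, 18.4 CPM at the high dose, log2 1.82, 0.60 to 3.19).

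The neutrophil-like class was made of 6 clusters in the liver-labelled library and 5 in the spleen-labelled library, and their shares differed between the doses. Clusters 2, 5 and 6 of the liver-labelled library, led by Il1b or Saa3, held 349, 343 and 322 vehicle cells and 3, 0 and 13 high dose cells. Cluster 4, led by the stefin genes Stfa3 and Stfa2, held 208 vehicle and 141 high dose cells. In the spleen-labelled library clusters 0, 13 and 16 held 156, 2 and 32 vehicle cells and 10, 3 and 3 high dose cells, and cluster 3, led by the same stefin genes, held 66 and 69. Low dose cells numbered 463, 170 and 150 in clusters 2, 5 and 6 of the liver-labelled library. In clusters 0, 13 and 16 of the spleen-labelled library they numbered 254, 121 and 36. The part of these shares in the low dose values was not tested. Median depth also differed, with 2720 UMIs in cluster 5, 15957.5 in cluster 4 and 22708 in cluster 16 of the liver-labelled library.

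These clusters differed in the same histone genes. Over all doses Hist1h2bc stood at 396, 944 and 248 CPM in clusters 2, 5 and 6 and at 23.5, 32.5 and 16.2 CPM in clusters 4, 9 and 16 of the liver-labelled library. Hist1h1c stood at 224, 532 and 167 CPM and at 22.8, 43.6 and 19.2 CPM in the same clusters, and H3f3b at 1290, 2211 and 1079 CPM and at 510, 579 and 539 CPM. In the spleen-labelled library Hist1h2bc stood at 288, 145 and 282 CPM in clusters 0, 13 and 16 and at 21.6 and 19.2 CPM in clusters 3 and 11. Hist1h2bc was among the 10 leading genes of clusters 2 and 5, and Hist1h4i among those of cluster 5 in the liver-labelled library, although histone genes were left out of the clustering.

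**Figure D4:**
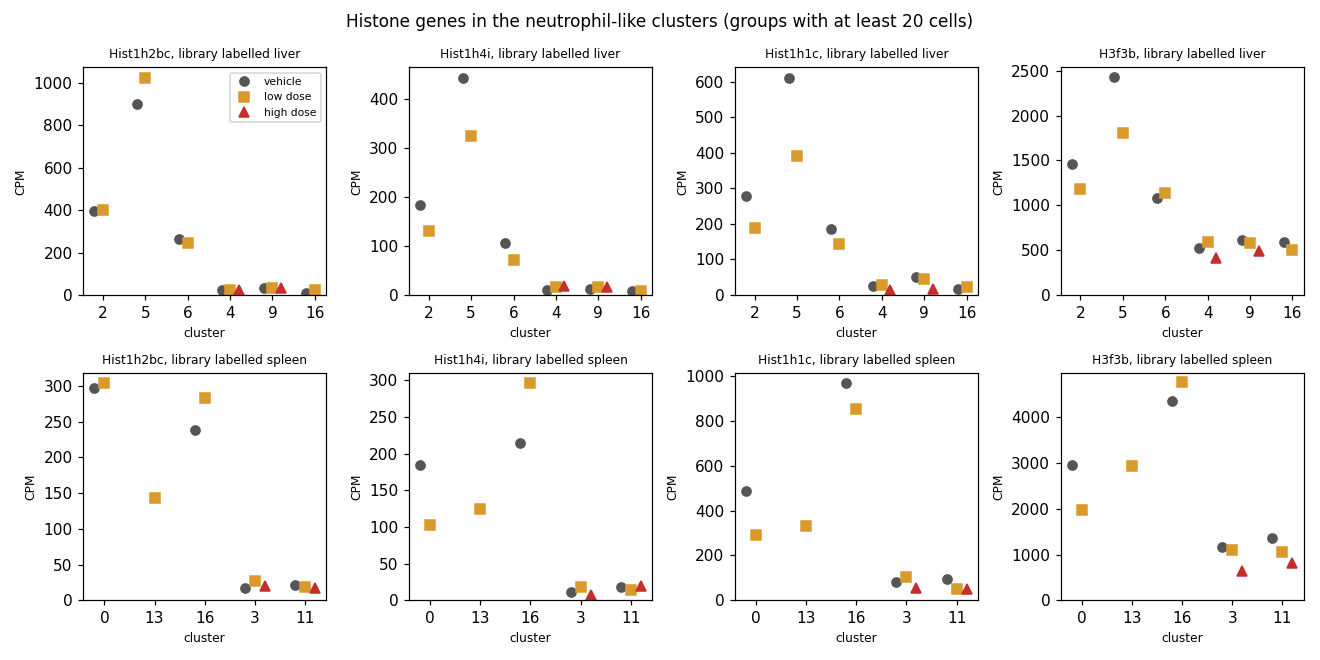
Levels in CPM (y axis, from 0) of Hist1h2bc, Hist1h4i, Hist1h1c and H3f3b in each neutrophil-like cluster (x axis), top row liver-labelled library and bottom row spleen-labelled library, with 1 point per dose group of at least 20 cells. High dose points exist only in clusters 4 and 9, and 3 and 11, where Hist1h2bc over all groups is at 23.5 and 32.5, and 21.6 and 19.2 CPM.

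Within a cluster the high dose was set against vehicle where both had at least 20 non-cycling cells, which left clusters 4 and 9 of the liver-labelled library and 3 and 11 of the spleen-labelled library. Core genes had log2 ratios of -0.02 (-0.29 to 0.26), 0.07 (-0.50 to 0.62), 0.01 (-0.69 to 0.72) and -0.43 (-1.32 to 0.43), all with intervals that include 0. Hist1h2bc had ratios of 0.08, 0.07, 0.30 and -0.55, with intervals that include 0 as well. Single core genes did not all follow the sum. In cluster 4 Hist1h2ae was at -1.44 (-3.04 to -0.08, 6 and 21 UMIs), beside -1.23 in the whole class, Hist1h2ap was at -0.95 (-2.18 to 0.15) and Hist1h4d at -0.78 (-1.67 to 0.05).

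Linker genes and H3f3b were lower at the high dose inside the clusters too, by less than in the whole class. Linker genes had log2 ratios of -0.74 (-1.11 to -0.37), -1.19 (-2.07 to -0.41), -0.68 (-1.16 to -0.21) and -0.31 (-0.9998 to 0.38). Hist1h1c had ratios of -0.81, -1.46, -0.76 and -0.67, of which the last had an interval that included 0 (-1.66 to 0.28). H3f3b had ratios of -0.34 (-0.45 to -0.23), -0.31 (-0.54 to -0.08), -0.92 (-1.09 to -0.75) and -0.75 (-0.98 to -0.52). Hist1h4i, a core gene, was higher at the high dose in cluster 4 (0.85, 0.22 to 1.49).

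Other classes did not all share the direction seen in neutrophil-like cells. In non-cycling T cell-like cells of the liver-labelled library the high dose over vehicle ratio was -0.15 (-0.35 to 0.05) for core and -0.01 for linker genes, and in B cell-like cells it was -0.25 (-0.57 to 0.07) for core and -0.35 (-0.69 to -0.01) for linker genes. In T cell-like cells of the spleen-labelled library, with 88 high dose and 29 vehicle cells, linker genes were at -0.93 (-1.47 to -0.37) and core genes at 0.31. Monocyte-like cells of that library had -0.69 for core and -0.91 for linker genes. In macrophage-like cells core genes were higher at the high dose, by 1.71 (0.91 to 2.53) and 0.46 (0.01 to 0.93). The class joined 2 clusters in the spleen-labelled library, cluster 2 led by Arg1 (52 vehicle and 82 high dose cells) and cluster 14 led by Marco and Clec4f (13 and 40), and the part of these shares was not tested. Much of this was Hist1h2bc, at 19.4, 39.1 and 207 CPM (4, 7 and 18 UMIs) and at 21.7, 39.5 and 46.2 CPM. Hist1h2bc was also among the core genes named above in the neutrophil-like cells.

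The granulocyte progenitor-like class joined 2 clusters in each library, and their shares differed between the doses. In the liver-labelled library cluster 8 held 143 vehicle and 55 high dose cells and cluster 18 held 36 and 57, and in the spleen-labelled library cluster 7 held 67 and 47 and cluster 8 held 69 and 13. The part of these shares in the dose values of the class was not tested. Its cycling cells numbered 145, 133 and 84 and 112, 119 and 55 in the vehicle, low dose and high dose groups. Their core genes stood at 1283, 1295 and 1039 CPM and at 971, 704 and 779 CPM, and their linker genes at 1576, 1674 and 1211 CPM and 1349, 897 and 1288 CPM. High dose over vehicle was -0.30 (-0.36 to -0.25) and -0.32 (-0.42 to -0.21) for core genes and -0.38 (-0.43 to -0.33) and -0.07 (-0.15 to 0.02) for linker genes. H1f0 was past 2-fold lower in both libraries, at 36.6 and 14.4 CPM (-1.35, -1.82 to -0.90) and at 68.0 and 33.6 CPM (-1.02, -1.52 to -0.54). H2afy differed in direction, at 0.62 (0.53 to 0.70) and -0.87 (-1.02 to -0.73).

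Between the libraries, the same class of cycling cells differed for some members more than between doses. In cycling granulocyte progenitor-like cells Hist1h2ae was lower in the spleen-labelled library in all 3 groups, at -1.20 (-1.37 to -1.04), -1.49 (-1.67 to -1.32) and -1.34 (-1.61 to -1.08) on the log2 scale. H3f3b was higher there in all 3, at 0.90, 0.49 and 0.76. In cycling T cell-like cells of all groups Hist1h2ae was at -2.42 (-2.71 to -2.14) and Hist1h2ap at -1.65 (-1.90 to -1.41), while H3f3b was at -0.01 (-0.11 to 0.09). Library and tissue cannot be told apart here.

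In non-cycling cells of all doses together, Hist1h2bc stood at 151 and 106 CPM in neutrophil-like and at 124 CPM (95.3 to 159) in 4T1 tumor cell-like cells. It stood at 61.3 and 39.0 CPM in macrophage-like, 9.8 and 2.3 CPM in B cell-like, 3.9 and 6.7 CPM in T cell-like and 1.4 CPM in NK cell-like cells. This order did not hold at each dose, since at the high dose neutrophil-like cells (25.8 and 32.1 CPM) lay below macrophage-like cells (207 and 46.2 CPM). In non-cycling cells H3f3a was highest in monocyte-like (2768 and 2650 CPM) and neutrophil-like cells (2381 and 2299 CPM) and lower in T cell-like cells (848 and 867 CPM). Its intervals for the monocyte-like and neutrophil-like cells did not overlap within a library. Among non-cycling cells H2afz was highest in NK cell-like cells (1852 CPM, 1752.5 to 1955.7), a class named in the liver-labelled library only. Non-cycling granulocyte progenitor-like cells, which were few, stood at 1164 and 1082 CPM. Monocyte-like cells stood at 1037 and 896 CPM and T cell-like cells at 384 and 436 CPM. The levels of H2afz in cycling cells, most of them granulocyte progenitor-like, were higher than all of these.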

How the data were processed

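The authors deposited UMI count matrices of genes and hashtags, 1 per library, made with Cell Ranger (5.0.0 in the matrix header, 6.0.0 in the submitters' processing notes) against mm10. Hashtags were called with HTODemux at a quantile of 0.99, and cells with more than 1 hashtag (616 and 215) or none (540 and 1627) were left out. No cell filter was applied, and the shallowest barcode held 500 UMIs. Each library was clustered apart with Seurat 5.3.0 and sctransform 0.4.2 in R 4.3.3, on 2974 and 2987 variable genes without the histone genes and the list of 25 named below, 30 components and a resolution of 0.8, which gave 24 and 18 clusters. A cluster was named from at least 3 markers of a class, each with a log2 fold of at least 1 (10 CPM added) and found in at least 20% of its cells, and 5 and 1 clusters stayed unnamed. Scrublet (scanpy 1.11.5), run on all barcodes of a library, marked 2.59% and 0.0207% of them as doublets, the latter too few for the caller to have worked. Marked cells among those used were kept.

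UMIs were summed over the cells of a class, state and group. CPM carry exact Poisson intervals and ratios exact conditional binomial intervals (95%, scipy 1.17.1, Python 3.11.15). The ratio intervals were checked on simulated Poisson counts. Such counts cannot show how the intervals hold where cells or mice vary more. The genes named are, in each histone group, the 5 with the most UMIs and, in each comparison, up to 10 past 2-fold with the largest change and at least 50 UMIs over both sides, with genes of the list of 25 by the same rule. Others were named after their values were seen. The members and lists were chosen with earlier results of these data known. Endothelial transcripts summed to 7.12 and 322 CPM and macrophage transcripts to 99.5 and 2290 CPM over all cells. Alternatives were the dominant hashtag, a cell filter, Scrublet removal, averaging each cell's CPM, totals that left out the 20 most abundant genes, 1 cycling limit at 0.2%, resolutions of 0.4 and 1.6, and other UMI minimums.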

Additional observations from a re-analysis of the deposited data

Results flagged for a closer look

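H2afz, the gene for H2A.Z, went in opposite directions at the low dose in non-cycling neutrophil-like cells of the libraries. The log2 ratio of low dose to vehicle was -0.118 (-0.176 to -0.0588) in the liver-labelled library and 0.168 (0.0126 to 0.326) in the spleen-labelled library, with 1 pooled sample per group. The difference was not tested.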

How the results depend on the processing

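Values below are log2 ratios. None of the group ratios of cycling cells or of the high dose changed direction under any alternative run, and in the liver-labelled library Scrublet removal moved none of the group ratios past its interval. In the spleen-labelled library Scrublet marked 1 barcode, and a resolution of 1.6 gave the same neutrophil-like ratios there to every digit and almost the same in the other library, so neither bears on stability there. The other ratios are compared with their counting interval, and no cause was tested. In the liver-labelled library the cycling ratio of core genes was 2.65 with the dominant hashtag, 1.87 as a mean over cells, 2.50 without the 20 most abundant genes and 2.52 with 1 limit at 0.2%. For variant genes these were 0.98, 0.86, 0.86 and 0.93, and for linker genes the last 3 were 2.99, 3.50 and 3.49. In the spleen-labelled library the mean over cells, the CPM without the 20 genes and the 1 limit gave 1.51, 1.99 and 2.07 for core, 0.74, 0.61 and 0.74 for variant and 1.79, 2.02 and 2.08 for linker genes, and variant genes were at 0.84 with the dominant hashtag and 0.71 after a filter on genes (200 or more) and mitochondrial UMIs (under 10%).

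At the high dose in neutrophil-like cells the mean over cells gave -3.28 (core), -0.43 (variant) and -3.43 (linker) in the liver-labelled library and -2.09 (core) and -0.67 (variant) in the spleen-labelled library. A resolution of 0.4 gave -2.41 (core) and -0.24 (variant) and the CPM without the 20 genes gave -0.089 (variant) in the former, and the dominant hashtag gave -2.07 (core) and -0.50 (variant) in the latter. At the low dose the mean over cells gave -0.38, -0.10 and -0.77 and -0.26, -0.12 and -0.63 for core, variant and linker genes, and the CPM without the 20 genes gave 0.040 for variant genes of the liver-labelled library. For variant genes the last value and the -0.12 had the opposite sign to the ratios of -0.02 and 0.01. In the spleen-labelled library other low dose signs changed within the counting interval. Core genes went from -0.03 to 0.03 with the dominant hashtag and to 0.007 with the 1 limit. Variant genes went to -0.007 after the cell filter.

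With at least 100 UMIs over both sides, the members past 2-fold were 37 of 46 and 27 of 34 in cycling cells (beside 56 of 67 and 54 of 61), 8 of 14 and 4 of 10 at the high dose (beside 18 of 27 and 7 of 14) and 0 of 10 at the low dose in the spleen-labelled library. With no minimum beyond 1 UMI, they were 6 of 61 and 7 of 43 at the low dose and 12 of 42 at the high dose in the spleen-labelled library. The share of all genes at these minimums was not computed, so these counts cannot be read as particular to histone genes. No paired analysis was possible because each library held 1 pooled sample per group.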
